A study of Danio rerio with 31 samples.

Results

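Collagen genes were followed in adult zebrafish brains (TU line, whole organ), across unexposed F2 fish and the F0 generation above them. The members were all gene IDs whose symbol begins with COL, a type number, A and a chain number, in any letter case. There were 57 such genes among 32520 gene IDs. By type number, 15 encoded fibrillar collagens, 9 basement membrane collagens (types IV, XV and XVIII), and 12 fibril-associated collagens with interrupted helices (FACIT). A further 9 belonged to the beaded filament and von Willebrand domain types VI and XXVIII, 5 to the short-chain network types VIII and X, 4 to membrane-spanning types and 3 to the anchoring fibril type VII.

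RNA was sequenced from 24 fish in 6 groups: 4 F2 females of the treated line, 4 F2 females of the control line, 2 F2 males of the treated line, 2 F2 males of the control line, 6 treated F0 males and 6 control F0 males. The treated F0 males had received a mixture that combined polychlorinated biphenyls (PCBs, chlorinated industrial oils) with polybrominated diphenyl ethers (PBDEs, brominated flame retardants), and the F2 fish had not. The labels give no dose, age in days, family or tank, so a difference between families or tanks and a difference between arms cannot be told apart. All groups share the line and the tissue. The comparisons ask which collagen transcripts differ with the exposure, with descent from exposed fish, between the sexes and between the generations.

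Collagens are triple helices wound from chains of the same gene or of several genes. Fibrillar collagens such as type I form the cables of fibrous tissue, which in the brain means chiefly the meninges and the adventitia of larger vessels. Type IV collagen forms the sheet-like network of basement membranes around vessels and under the pial surface, with types XV and XVIII, perlecan and laminins beside it. Levels are given in CPM, gene read counts scaled to a library of 1 M gene reads. Single genes are compared only within a gene because CPM does not correct for transcript length. Where CPM were summed over genes, long and highly expressed genes weigh most, and the sums are compared only between fish. Changes are log2 fold changes from edgeR's quasi-likelihood test. Their standard error (SE) is approximate, the size of the change divided by the square root of the test's F statistic. A gene was called when its Benjamini-Hochberg adjusted p over all genes tested was below 0.05.

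Gene reads per fish ranged between 12.2 and 34.1 M. Genes with at least 1 read numbered 15730 and 16060 in F2 treated-line females 6 and 24, and 16487 and 18305 in F2 control-line females 21 and 11. The other 20 fish had 18838 to 21777, so control-line female 11 lay close to the lowest of them, treated F0 male 16. Collagen genes are part of this count of detected genes. Those without a read numbered 22 and 17 of 57 in those treated-line females and 20 and 13 in those control-line females, against 1 to 10 in every other fish. Values without these 4 libraries, a set chosen after the data were seen, therefore stand beside the results from F2 females.

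**Figure D1:**
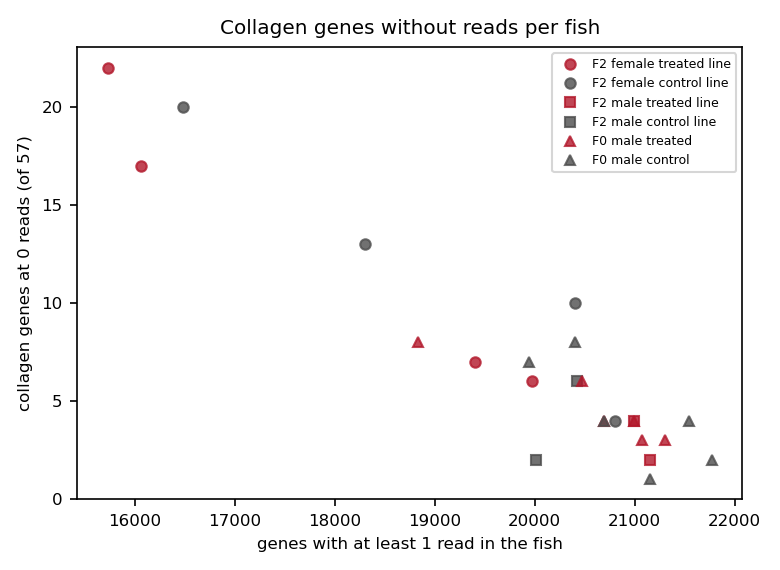
Collagen genes at 0 reads (of 57, vertical axis) against the genes with at least 1 read (horizontal axis); each point is 1 fish, marked by group. The 4 F2 females with 15730 to 18305 detected genes have 13 to 22 collagen genes at 0, and every other fish has 1 to 10.

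Genes listed as markers of the cells that hold these collagens had reads in the brains. Of the listed mural genes, NOTCH3 ranged between 69.9 and 121 CPM over the 6 groups, PDGFRB between 10.1 and 23.7 and acta2 between 13.4 and 39.2 CPM. The endothelial receptor gene kdrl ranged between 20.6 and 37.1 CPM. The listed fibroblast genes DCN (decorin) and PDGFRA ranged between 28.5 and 52.9 and between 5.56 and 15.6 CPM. Whether other brain cells contributed to these levels was not tested. LUM (lumican), another fibroblast gene, was at most 2.14 CPM and at 0 in 3 fish. Of the defining genes of cartilage and bone, cnmd had reads in every fish (0.532 to 9.43 CPM). acanb reached 5.95, acana 4.76 and MATN1 2.00 CPM. The bone genes RUNX2, bglap, SP7 and runx2b were at 0 in 20, 19, 8 and 4 fish, and runx2b reached 2.71 CPM. Of the epidermal genes, icn had 29.3 to 81.9, krt5 2.41 to 69.6 and krt4 1.47 to 19.2 CPM. TP63 and epcam reached 2.51 and 2.14 CPM and were at 0 in 4 and 16 fish. Whole-brain libraries do not tell which cells the collagen reads came from, and fewer cells of a type and less RNA per cell cannot be told apart.

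Among fibrillar collagens, COL1A2, which encodes the second chain of type I collagen, was higher in treated F0 males than in control F0 males, and no other collagen gene was called. COL1A2 (ENSDARG00000020007) had 21.6 CPM in the lowest treated F0 male, a median of 25.0 and 33.2 in the highest, against 12.1, 14.6 and 21.8 CPM in control F0 males. All 6 treated males lay above the control mean, and the lowest treated male fell just under the highest control male. The means were 26.1 ± 4.56 CPM in treated and 15.7 ± 3.93 CPM in control males (SD, n = 6 each). The log2 change was 0.74 (SE 0.164, adjusted p = 0.0181). Of 47 collagen genes tested, this was the 1 called, or 2.13%, beside 11.4% of all 18057 genes tested in the same comparison (6.32% higher and 5.09% lower). With 1 male left out the calls over all genes ran from 440 to 3217 and those of collagen genes from 1 to 4, so the shares are not compared further.

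The call for COL1A2 held when any 1 of the 12 F0 males was left out, with log2 changes between 0.66 and 0.86 and adjusted p between 0.0143 and 0.0490. The share of aligned reads outside genes did not overlap between the arms, at 16.6 to 19.5% in treated and 19.9 to 21.4% in control males. With that share as a covariate the log2 change of COL1A2 was 0.59 (SE 0.265, adjusted p = 0.859), and no gene of the genome was called. Without treated male 16 and control males 9 and 33 the log2 change of COL1A2 was 0.64 (adjusted p = 0.0871), and 42 of 18473 genes were called. The labels give no reason for leaving out these fish. How far the non-gene share contributes to the COL1A2 difference was not tested beyond the fit with the covariate.

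The other listed type I genes were col1a1a and COL1A1, whose symbols share a chain number. Whether both encode the same chain was not tested. col1a1a (ENSDARG00000012405) ranged between 8.44 and 28.7 CPM (median 13.1) in treated F0 males and between 7.58 and 11.5 CPM (median 9.49) in control F0 males. Of the treated males, 4 lay above every control male and 2 within their range, and the difference did not pass (log2 change 0.67, SE 0.245, adjusted p = 0.0817). COL1A1 (ENSDARG00000035809) ranged between 11.6 and 33.3 CPM (median 20.6) in treated and between 8.31 and 23.5 CPM (median 13.3) in control males, with wide overlap (log2 change 0.50, adjusted p = 0.239). With the non-gene share in the model, col1a1a had a log2 change of 1.18 and COL1A1 one of −0.15. That share did not overlap between the arms and no gene was called in that fit, so these values do not set the 2 genes apart.

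**Figure D2:**
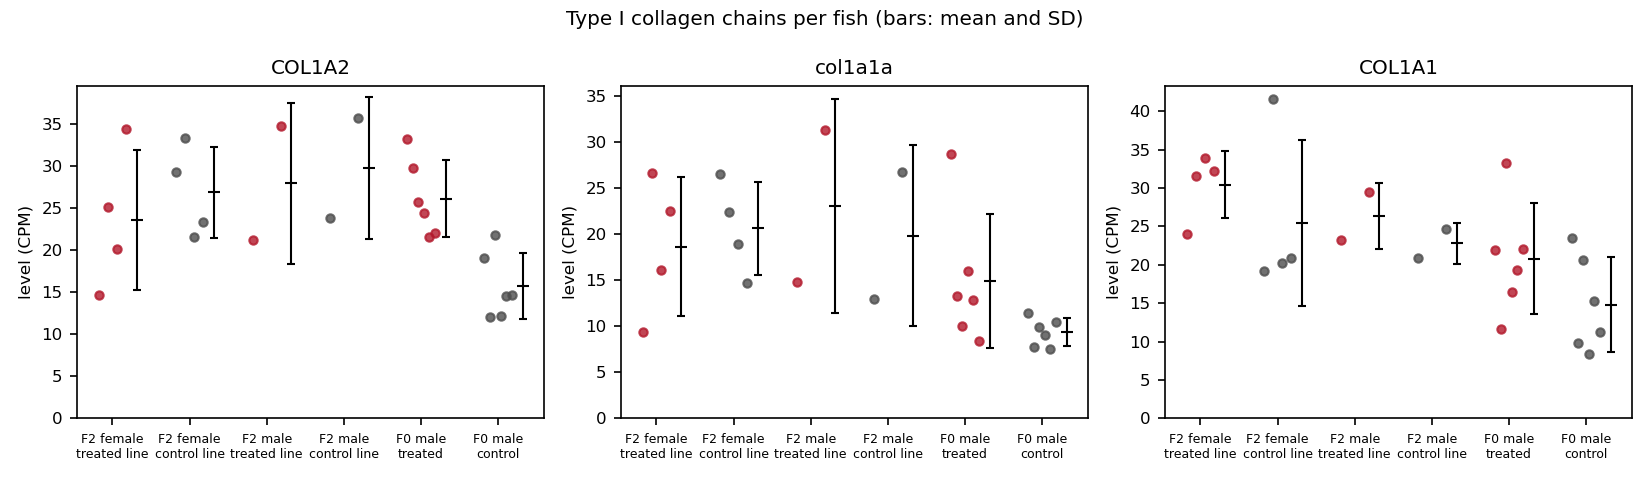
Level in CPM (vertical axes, from 0) of the type I collagen genes COL1A2, col1a1a and COL1A1 in each fish, by group, with the group mean and SD beside the points. COL1A2 lies at 21.6 CPM or more in all 6 treated F0 males and at 21.8 CPM or less in all 6 control F0 males, while F2 lines overlap.

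The 3 type I genes were also set against each other from fish to fish. Over deviations of log2(CPM + 0.5) from group means in 24 fish, COL1A2 and col1a1a had a Pearson's r of 0.75 and a Spearman's rho of 0.74 (permutation p = 0.00043 and 0.00086; adjusted over 15 chain pairs 0.00645 and 0.0129). Leaving out the 2 fish farthest from the median of COL1A2 gave r = 0.80. COL1A2 and COL1A1 had r = 0.51 and rho = 0.55 (permutation p = 0.0099 and 0.0104, adjusted 0.0743 and 0.0779), and r = 0.48 without 2 fish. For col1a1a and COL1A1 r was 0.17 and rho 0.16 (permutation p = 0.398 and 0.448). The differences between these correlations were not tested. None of the other 12 pairs passed the adjustment, among them COL4A1 with COL4A2 (r = 0.31, rho = 0.33, permutation p = 0.299 and 0.167). The pairs were chosen after the data were seen, and library quality is shared by both genes of a pair in each fish. Each F2 male group holds 2 fish, whose deviations from their mean mirror each other and are not independent.

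The other fibrillar genes showed no called difference between treated and control F0 males. COL2A1 (ENSDARG00000011407), the type II chain of cartilage and notochord, averaged 56.4 ± 12.9 CPM in treated and 48.2 ± 15.1 CPM in control males. COL5A2 and COL5A1, type V chains that are built into type I fibrils, averaged 21.9 ± 3.45 and 10.1 ± 3.28 CPM in treated males, against 23.7 ± 2.697 and 13.1 ± 3.12 CPM in control males. COL11A1 averaged 7.90 ± 3.03 CPM in treated and 6.42 ± 1.57 CPM in control males, and the other COL2A1 ID (ENSDARG00000069093) 5.69 ± 1.82 and 6.09 ± 1.68 CPM. Of the 15 fibrillar genes, 10 had a log2 change above 0, with a median of 0.24, where the median of all genes tested was −0.02. At an unadjusted p below 0.05 there were 3 of 15 fibrillar genes, beside 29.6% of all genes: COL1A2 and col1a1a higher and col5a3a lower (log2 change −0.74, adjusted p = 0.137).

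No basement membrane collagen was called between treated and control F0 males. The alpha 1 and alpha 2 chains of type IV, COL4A1 and COL4A2, are the main chains of vascular basement membranes. COL4A2 ranged between 4.87 and 10.3 CPM (median 7.56) in treated and between 5.51 and 10.4 CPM (median 7.47) in control males, a log2 change of 0.00 (SE 0.216). COL4A1 averaged 2.38 ± 0.488 CPM in treated and 2.99 ± 1.02 CPM in control males. The type IV chain col4a5 averaged 6.88 ± 1.33 CPM in treated and 4.76 ± 1.37 CPM in control males, higher than the control mean in 6 of 6 treated fish (log2 change 0.54, adjusted p = 0.112). Its partner chain col4a6 averaged 2.37 ± 0.739 and 3.43 ± 0.992 CPM, lower than the control mean in 6 of 6 (log2 change −0.52, adjusted p = 0.246). The endostatin-bearing col18a1a averaged 32.5 ± 2.96 CPM in treated and 27.6 ± 8.60 CPM in control males, and col15a1b 8.30 ± 2.09 and 7.58 ± 2.38 CPM. col18a1b was at most 1.98 CPM in any F0 male, and COL4A4 and col4a3 were too low to test. The median log2 change over the 7 tested basement membrane genes was 0.14, and over the 4 type IV chains −0.16.

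The remaining classes held several genes near the threshold in F0 males. COL9A2, a chain of the fibril-associated type IX, had 6.56 CPM in the lowest treated male, a median of 7.23 and 11.1 in the highest, against 3.03, 5.71 and 6.24 CPM in control males. The arms did not overlap, and the log2 change was 0.64 (adjusted p = 0.0567). The share of all genes whose F0 arms do not overlap was not counted, and 29.6% of all genes had an unadjusted p below 0.05 in edgeR's test. col14a1b, a type XIV chain that sits on the fibril surface, averaged 10.6 ± 1.99 CPM in treated and 7.18 ± 1.54 CPM in control males (log2 change 0.58, adjusted p = 0.0510). col6a1, a chain of the type VI microfibrils, averaged 5.29 ± 2.04 CPM in treated and 8.34 ± 1.52 CPM in control males (log2 change −0.65, adjusted p = 0.0841). Over the 8 tested genes of types VI and XXVIII, 6 had a log2 change below 0 and the median was −0.52. DESeq2 called 5 collagen genes in this comparison: COL1A2, col1a1a, COL9A2 and col14a1b higher and col6a1 lower. It called 12.9% of all 25451 genes with reads, a base that keeps genes to which DESeq2 may give no adjusted p. How many collagen genes it tested was not counted.

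**Figure D3:**
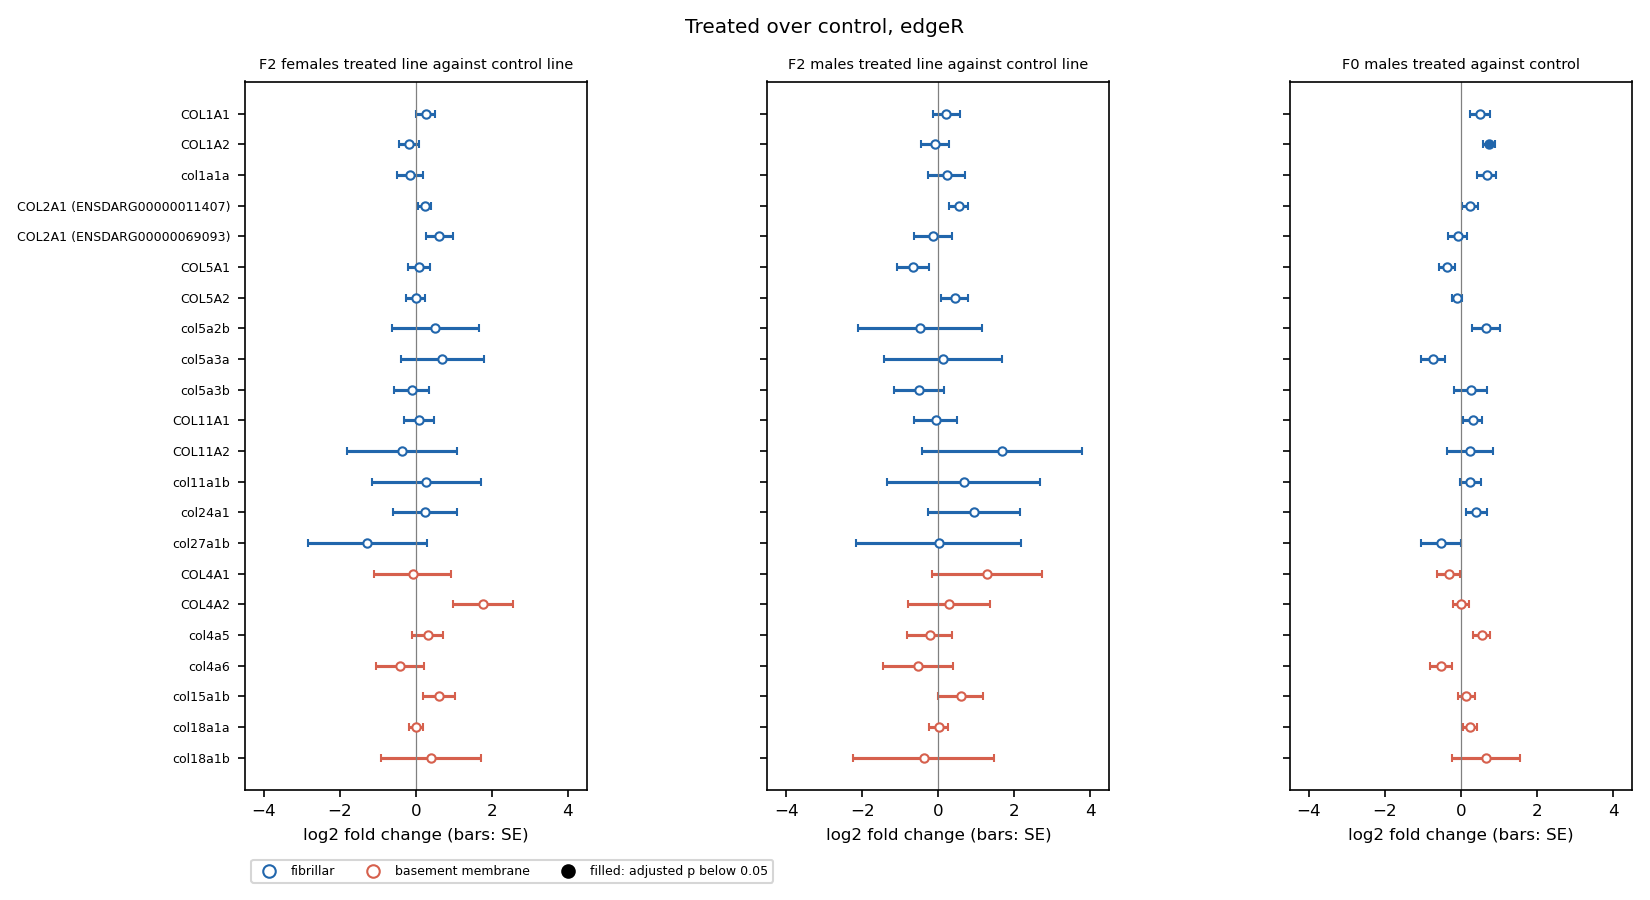
Log2 fold change (horizontal axes; bars are SE) of each tested fibrillar (blue) and basement membrane (red) collagen gene, in F2 females and F2 males of the treated over the control line and in treated over control F0 males. The filled point is COL1A2 in F0 males at 0.74, the only call, and most SE bars are wider in F2 fish.

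The genes that fold, cut and bind collagen were read beside it in F0 males, where 11.4% of all genes were called. Of 28 tested genes of chain assembly and modification, 1 was higher and 2 were lower. PLOD3, which hydroxylates and glycosylates collagen lysines, averaged 25.2 ± 4.15 CPM in treated and 18.6 ± 2.82 CPM in control males (log2 change 0.45, adjusted p = 0.0496). P3H3, a member of the prolyl 3-hydroxylase family, averaged 1.91 ± 0.547 and 6.04 ± 2.75 CPM (log2 change −1.65, adjusted p = 0.0151). FKBP10 (ENSDARG00000099183), a collagen chaperone and 1 of 2 IDs with that symbol, averaged 1.27 ± 0.635 CPM in treated and 3.27 ± 0.590 CPM in control males (log2 change −1.35, adjusted p = 0.0231). Of 16 tested genes of cleavage and crosslinking, PCOLCE2, an enhancer of procollagen cleavage (ENSDARG00000055575, 1 of 2 IDs), was the 1 called, with a log2 change of 0.47. The 2 lowered genes of assembly lay under 10 CPM in every F0 male. Their arms did not overlap, and the share of all genes without overlap was not counted.

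Among 40 tested fibril-associated proteins, SPARC, a collagen-binding glycoprotein, was higher with a log2 change of 0.33 (adjusted p = 0.0433) and the neural matrix gene TNR was lower with −1.01 (adjusted p = 0.015). Of 27 laminins, nidogens and related basement membrane genes, SMOC2 (0.62) and DAG1, the dystroglycan receptor of laminins (0.23), were higher. HSPG2, the perlecan gene, was lower, at 3.90 ± 1.44 CPM in treated and 7.07 ± 1.14 CPM in control males (log2 change −0.85, adjusted p = 0.0364). LAMB1 (ENSDARG00000045524, 1 of 2 IDs) was lower too, with −0.67. ITGA1, an integrin subunit that binds collagen, was the 1 called of 16 collagen receptors: 0.914 to 3.18 CPM in treated males, against 4.05 to 6.20 CPM in control males (log2 change −1.51, adjusted p = 0.015). RECK, an inhibitor of matrix metalloproteinases, was the 1 called of 20 genes of collagen degradation, at 16.95 to 20.6 CPM in treated and 8.82 to 14.3 CPM in control males (log2 change 0.74, adjusted p = 0.015). SMAD7, an inhibitor in TGF-beta signalling, was the 1 called of 25 with 0.57 (adjusted p = 0.0466). None of these genes kept its call once the non-gene share was in the model. No gene of the genome was called in that fit, so this does not set these genes apart.

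Marker lists of the cells around collagen, and of other cells, were set beside the same 11.4% of all genes called in F0 males. The meningeal and perivascular fibroblast list had 2 of 33 tested genes higher and 0 lower, FOXC1 (log2 change 0.59) and MDK (0.40; ENSDARG00000020708, 1 of 2 IDs), with a list median of 0.16. Its summed level was 2004 to 2832 CPM in treated and 1748 to 2122 CPM in control males. MDK alone made up a large part of that sum, with 803 to 1297 CPM in treated and 653 to 804 CPM in control males. Of 24 mural genes FOXC1 was higher and EPAS1 (ENSDARG00000057671, 1 of 2 IDs) lower with −0.52, and of 34 endothelial genes tek, an angiopoietin receptor, was higher with 0.81. Of 25 tested cartilage and bone genes SPARC was the 1 called. Epidermal markers had 0 of 16 called, with summed levels of 275.3 to 366.0 CPM in treated and 274.4 to 547.7 CPM in control males. With the covariate the change of MDK was −0.01. Of the other cell lists, radial glia had 4 of 21 higher, microglia 1 of 25 higher, neurons 6 higher and 4 lower of 31, muscle 2 of 19 lower and erythrocytes 1 of 14 lower. Photoreceptors and oligodendrocytes had 0 of 33 and 0 of 17 called by edgeR. The photoreceptor list had a median log2 change of 0.53, and it summed to 483 to 822 CPM in treated and 19.9 to 725 CPM in control males. The part of fibroblast, photoreceptor or other markers in the higher COL1A2 level was not tested.

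In F2 fish, the treated line and the control line showed no called collagen difference in either sex. edgeR called 0 of 50 tested collagen genes in females, in males and in both sexes together, beside 0% of all 19463 genes in each; DESeq2 called 0 collagen genes and 48, 5 and 76 of all genes. At an unadjusted p below 0.05 there were 3 collagen genes in females, 1 in males and 2 in both sexes, beside 7.65%, 1.40% and 7.69% of all genes. COL1A2 had 14.7, 25.1, 20.2 and 34.3 CPM in F2 females of the treated line, against 29.3, 33.3, 21.6 and 23.3 CPM in F2 females of the control line. In F2 males it had 21.2 and 34.7 CPM in the treated line, against 23.8 and 35.7 CPM in the control line. The lines overlapped in both sexes, and the log2 change over both sexes was −0.16 (SE 0.207, adjusted p = 0.950). The approximate 95% interval of that change ran from −0.56 to 0.25. It does not hold the error of the value of 0.74 in F0 males, and the difference between both effects is tested in the next paragraph. Without the 4 libraries with few genes COL1A2 did not overlap between the female lines, and its change turned to 0.40 (SE 0.272) in females and 0.15 (SE 0.203) over both sexes, neither called. Only 2 females were then left in each line, and the share of all genes without overlap was not counted.

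The line effect on COL1A2 in F2 fish minus the exposure effect in F0 males was −0.87 (SE 0.288, unadjusted p = 0.00536), which did not pass over all genes (adjusted p = 0.321). edgeR called 0 collagen genes and 0% of 21082 genes for this difference, with 3 collagen genes at an unadjusted p below 0.05, beside 11.4% of all genes, and DESeq2 called 0 collagen genes. The other 2 were col14a1b with −1.95 (SE 0.531, adjusted p = 0.313) and col6a1 with 1.04 (SE 0.428, adjusted p = 0.368). Without the 4 libraries the differences were −0.57 for COL1A2 (adjusted p = 0.464), −1.70 for col14a1b and 1.25 for col6a1. The line effect in F2 females minus that in F2 males had 0 collagen genes and 0% of 19463 genes called by edgeR and 0 collagen genes by DESeq2, with 1 collagen gene, COL12A1 (ENSDARG00000078322), at an unadjusted p below 0.05 (3.29, SE 1.43; 3.69 without the 4 libraries), beside 1.5% of all genes.

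The collagen genes at an unadjusted p below 0.05 between the lines in F2 females were COL4A2, COL12A1 and col28a2a. COL4A2 had 10.6, 7.87, 3.45 and 8.94 CPM in F2 females of the treated line, against 2.88, 0, 2.12 and 4.01 CPM in F2 females of the control line. All 4 treated-line females lay above the control-line mean, and the lines overlapped in 1 fish (log2 change 1.76, SE 0.785, adjusted p = 0.626). Without the 4 libraries with few genes the change was 1.44 (SE 0.439, adjusted p = 0.257). Reads outside genes made up 18.7 to 20.8% in treated-line and 21.6 to 23.5% in control-line females, without overlap, and with that share in the model the change was 0.97 (SE 1.22). The control-line female at 0 was female 21, which is among those 4. Photoreceptor markers had a median log2 change of 1.61 in F2 females, with sums of 33.8 to 1342 CPM in the treated and 23.9 to 439 CPM in the control line, and muscle markers one of 0.71, with 137 to 207 and 123 to 164 CPM. Their part in the collagen values was not tested. In F2 males COL4A2 had 4.94 and 8.99 CPM in the treated line and 6.25 and 5.15 CPM in the control line.

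COL12A1 (ENSDARG00000078322), a fibril-associated type XII chain, stood at separate low and high levels. It had 2.78, 46.1, 51.2 and 27.8 CPM in F2 females of the treated line, against 5.51, 10.3, 6.31 and 5.85 CPM in F2 females of the control line. F2 males had 4.27 and 32.6 CPM in the treated line and 51.5 and 27.4 CPM in the control line. Treated F0 males had 18.1 to 51.9 CPM and control F0 males 20.9 to 47.1 CPM, apart from control male 3 at 4.05 CPM. The low level of 2.78 to 10.3 CPM was thus found in 7 fish of 4 groups, all 4 control-line females among them, and the other 17 fish had at least 18.1 CPM. The difference between the lines in females was 2.19 (SE 0.838, adjusted p = 0.595), and 2.60 (SE 1.01) without the 4 libraries. col28a2a, a von Willebrand domain collagen, had 0, 3.30, 1.81 and 3.64 CPM in F2 females of the treated line, against 0, 0, 0 and 0.300 CPM in those of the control line. Its log2 change was 4.70 (SE 1.99, adjusted p = 0.611), and 4.42 without the 4 libraries, with 1 control-line fish above 0 behind either value.

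col14a1b was the collagen gene with the lowest p over both sexes of F2 fish. It had 4.27, 21.5, 20.4 and 13.8 CPM in F2 females of the treated line, against 47.5, 26.4, 41.3 and 10.9 CPM in F2 females of the control line. F2 males had 9.55 and 7.97 CPM in the treated line, against 46.6 and 9.92 CPM in the control line. Levels above 40 CPM occurred in control-line females 11 and 31 and control-line male 25, and 2 of the other 3 control-line fish lay within the range of the treated line (log2 change −1.28, SE 0.485, adjusted p = 0.546). Without the 4 libraries the change was −1.12 (SE 0.664). COL14A1, the other type XIV gene, was even across the 24 fish at 27.8 to 47.0 CPM. COL2A1 (ENSDARG00000011407) had a log2 change of 0.34 over both sexes (adjusted p = 0.588). In F2 males alone, where it was the collagen gene with an unadjusted p below 0.05, it averaged 83.2 CPM in the treated line and 57.2 CPM in the control line (n = 2 each), without overlap (log2 change 0.54, adjusted p = 1). How many genes separate in the same way with 2 fish in each line was not counted.

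**Figure D4:**
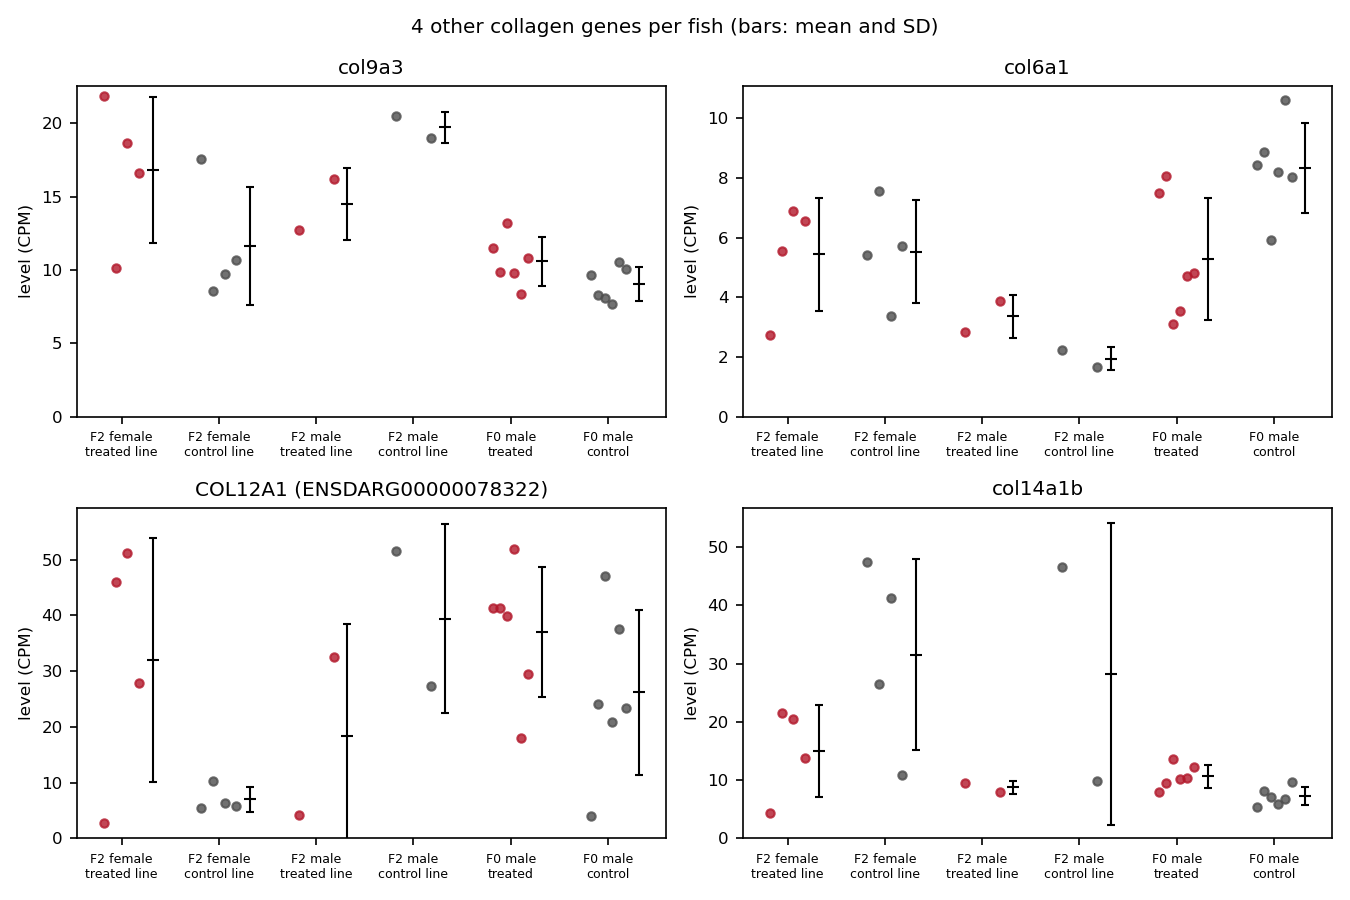
Level in CPM (vertical axes, from 0) of col9a3, col6a1, COL12A1 (ENSDARG00000078322) and col14a1b in each fish, by group, with the group mean and SD beside the points. COL12A1 splits into 7 fish at 2.78 to 10.3 CPM and 17 at 18.1 CPM or more, and col14a1b exceeds 40 CPM in 3 F2 fish of the control line.

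Between the sexes of F2 fish, edgeR called 0 of 50 collagen genes, beside 0.0154% of 19463 genes, and DESeq2 called 0. At an unadjusted p below 0.05 there were 3 collagen genes, beside 5.17% of all genes. col6a1 ranged between 2.74 and 7.58 CPM (median 5.64) in 8 F2 females and had 2.85, 3.88, 2.23 and 1.67 CPM in 4 F2 males. All 8 females lay above the male mean, with treated-line female 6 and control-line female 31 inside the male range (log2 change 1.08, SE 0.431, adjusted p = 0.883). col4a6 had a log2 change of 1.21 and col5a3b one of −0.80, neither past the threshold. Without the 4 libraries the 3 changes were 1.03, 1.203 and −0.81. A low col19a1 ID (ENSDARG00000096073, 1 of 2 with that symbol) had 0 reads in all 8 F2 females, which allows up to 0.0176 CPM over that group for counting error, and 2, 3, 10 and 6 reads in the 4 F2 males. It was too low to enter the test. The 8 females include the 4 libraries with few genes, and the floor without those was not computed.

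F2 males differed from F0 males in col6a1 and col9a3. This contrast sets generations side by side, and handling, age or sequencing batch that went with the generation cannot be told apart from it. col6a1 had 2.85 and 3.88 CPM in F2 males of the treated line and 2.23 and 1.67 CPM in F2 males of the control line, against 3.12 to 10.6 CPM (median 7.76) in 12 F0 males. The overlap was 1 treated-line F2 male with treated F0 males, and the log2 change was −1.37 (SE 0.320, adjusted p = 0.0187). Within control fish alone it was −2.09 (SE 0.473, adjusted p = 0.0107). col9a3, a type IX chain, had 12.7 and 16.2 CPM in F2 males of the treated line and 20.5 and 18.97 CPM in F2 males of the control line, against 7.69 to 13.2 CPM (median 9.84) in F0 males. The lowest F2 male lay under the highest F0 male, and the log2 change was 0.79 (SE 0.189, adjusted p = 0.0207).

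These were 2 of 53 collagen genes tested, 3.77%, 1 higher and 1 lower, beside 4.28% of 21082 genes tested (2.24% higher and 2.04% lower), a share near the background. Without any 1 of the 4 F2 males no collagen gene was called, and the calls over all genes then fell to between 10 and 178. Over all 24 fits without 1 fish the log2 change of col9a3 was 0.69 to 0.87 and that of col6a1 −1.49 to −1.27. With the 16 males fitted alone 7 collagen genes were called, beside 16.1% of all genes, and without the 4 F2 females with few genes 6, beside 15.6%. DESeq2 called 4, beside 7.91% of all 26362 genes with reads, and control males alone gave 4, beside 7.07%. How many collagen genes entered the other fits was not counted, so their shares are not compared. The fits of 16 males and without the 4 females added COL1A2 (log2 change 0.52 and 0.51), col1a1a (0.86 in both), col4a6 and col6a4b to col6a1 and col9a3, and the males alone also col14a1b. In the fit of all 24 fish col1a1a had 14.8 and 31.3 CPM in F2 males of the treated line and 12.9 and 26.8 CPM in F2 males of the control line, against 7.58 to 28.7 CPM (median 10.3) in F0 males (log2 change 0.86, adjusted p = 0.0602). P4HB, a subunit of the enzyme that hydroxylates collagen prolines, was the 1 called of 29 assembly genes, higher by 0.55 (adjusted p = 0.0109). SMAD7 was higher again (0.64). Of 36 endothelial genes, aplnrb (0.48) and SOX7 (0.55) were higher and SLC2A1 (ENSDARG00000001437, 1 of 2 IDs) was lower with −1.44, while 0 of 38 fibroblast and 0 of 28 mural markers were called by edgeR. Other cell lists had 3 of 28 microglial genes higher, 3 of 32 neuronal genes lower, and 1 gene higher each of 22 radial glial, 17 oligodendrocyte and 24 muscle genes.

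Fibrillar and basement membrane collagens were set side by side by the mean of log2(CPM + 0.5) over 15 and 8 genes in each fish, each gene centred on its mean over 24 fish. The fibrillar mean was −0.03 and −0.05 in treated-line and control-line F2 females and 0.28 and 0.15 in F2 males. It was 0.03 and −0.12 in treated and control F0 males. In the same order the basement membrane mean was 0.09 and −0.24, 0.20 and 0.07, and 0.04 and −0.04. The fibrillar minus basement membrane value averaged −0.13 ± 0.37 in F2 females of the treated line and 0.19 ± 0.27 in F2 females of the control line (SD, n = 4 each). It averaged 0.08 ± 0.20 and 0.08 ± 0.35 in treated-line and control-line F2 males (n = 2 each), and −0.01 ± 0.18 in treated and −0.08 ± 0.18 in control F0 males (n = 6 each). With all fish kept, the groups overlapped in every pair. Under the main setting the difference was smaller than the SD within groups. It was −0.32 against 0.33 in F2 females, 0.00 against 0.29 in F2 males and 0.07 against 0.18 in F0 males. The size in F2 females depended on the setting: it was −0.60 with genes of at least 5 CPM alone, −0.50 with a pseudocount of 0.1, −0.39 without the 4 libraries with few genes and −0.14 with summed CPM. All of these but the value with summed CPM lay past 0.33, the SD of the main setting. The SD under each other setting was not computed, so these values are not set against their own spread. Without the 4 libraries the female lines did not overlap, at −0.16 and −0.20 in the treated and 0.28 and 0.14 in the control line. With 2 fish left in each line, a lack of overlap carries little information. With 1 F2 male left out the F2 male difference ran from −0.25 to 0.25, and with genes of at least 5 CPM the F0 difference was −0.02. F2 females minus males was −0.05, and 0.29 with genes of at least 5 CPM. F2 minus F0 males was 0.13, and 0.42 with type IV alone as basement membrane. The SD within groups was 0.20 in the main setting and was not computed with type IV alone. These means carry no test, because the members were chosen with earlier results known.

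**Figure D5:**
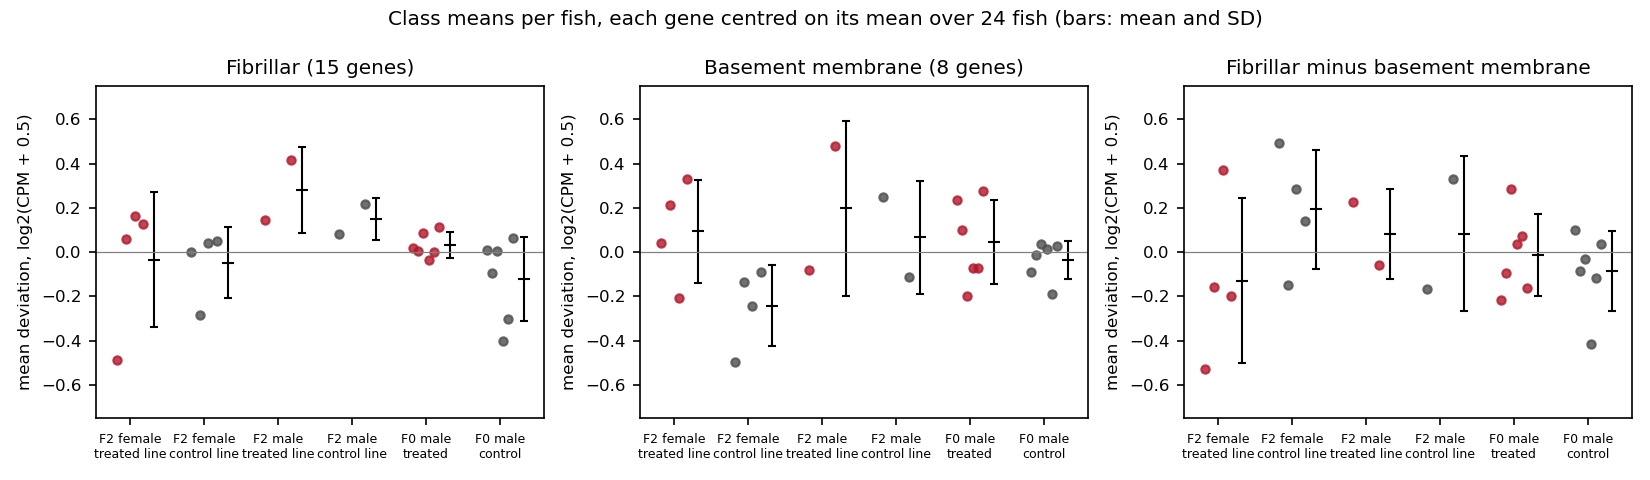
Mean deviation of log2(CPM + 0.5) from each gene's mean over 24 fish (vertical axes), for 15 fibrillar genes, 8 basement membrane genes and their difference, in each fish by group, with the group mean and SD. With all fish kept, the difference overlaps between lines or arms in every pair of groups and runs from −0.53 to 0.49.

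Summed levels of the type I genes and the type IV genes overlapped between lines and arms with all fish kept. Type I genes summed to 48.1 to 89.0 CPM in F2 females of the treated line and 58.9 to 97.3 CPM in those of the control line, and to 52.6 to 83.8 CPM in treated and 29.6 to 54.1 CPM in control F0 males. Type IV genes summed to 14.8 to 24.1 CPM in treated-line and 11.9 to 15.7 CPM in control-line F2 females. Of the 4 tested there, 2 had a log2 change above 0 and 2 below. Without the 4 libraries neither sum overlapped between the 2 fish of each line: type I genes had 83.3 and 89.0 CPM in the treated and 60.7 and 58.9 CPM in the control line, and type IV genes 24.1 and 22.5 CPM against 11.9 and 15.7 CPM. With 2 fish in each line such a separation carries little information, and how many genes separate in the same way was not counted. Type IV genes summed to 17.1 to 22.1 and 16.3 to 21.99 CPM in treated and control F0 males.

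The members not yet described showed no difference called by edgeR in any comparison. col7a1, the anchoring fibril chain, averaged 11.9 ± 4.89 CPM in F2 females, 8.27 ± 0.963 in F2 males and 7.39 ± 1.44 in F0 males. The type VI chain COL6A3 ranged between 8.15 and 16.8 CPM over all fish, and the fibril-associated col16a1 between 9.24 and 30.2 CPM. COL8A1, a short chain of vessel walls, averaged 3.91 ± 1.36 CPM and the membrane-spanning col23a1b 3.92 ± 1.55 CPM over 24 fish. COL8A2, col6a4a and both COL10A1 IDs stayed below 5 CPM in every fish. Untested for low counts were 10 collagen genes in F0 males, 7 in the F2 fits and 4 in the fit of 24 fish: col4a3, col28a2b, col17a1a and col8a1a in all 3.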

How the data were processed

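Whole-brain RNA of 24 zebrafish was sequenced in 31 runs, 17 fish with 1 run and 7 with 2. The deposited values are raw counts of reads per gene, made by the authors. The submitters' processing notes list STAR 2.7, HTSeq 0.11.2, DESeq2 1.24.0, cutadapt 2.1 and bcl2fastq, with the genome GRCz11. No source used here gives the strand setting or annotation release, which leaves overlapping, antisense and near-identical genes uncertain.

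Counts were summed over the runs of a fish, whose chi-square per degree of freedom was 1.03 to 1.19, against 14.6 to 102 between fish of the same group. Each fish is a replicate, and p-values cover the spread between these fish only. Lines that name no gene, among them reads outside genes (16.6 to 23.5% of uniquely aligned reads), stayed out of library sizes. Symbols, found for 29201 of 32520 IDs, often lack the zebrafish paralog suffix, and 10 members share a symbol with another ID. No coordinates or sequences were used.

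Tests used edgeR 4.0.16 (TMM, filterByExpr with a minimum count of 10, robust quasi-likelihood) under R 4.3.3, Benjamini-Hochberg adjusted over all genes tested. Separate fits held the 12 F0 males and the 12 F2 fish, and contrasts between generations used all 24. CPM values share a TMM scale over 24 fish, and scores used a pseudocount of 0.5 CPM. A gene at 0 in a group has a floor of 3 reads over the group, for counting error only. Alternatives were DESeq2 1.42.0, its size factors in edgeR, no filter, first runs only, the non-gene read share as a covariate and each fish left out. The scripts were tested on simulated counts.

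Members, classes, pathway and marker lists (551 of 594 names matched) were chosen with earlier results of these data known. Named were every called member, the 8 fibrillar and 8 basement membrane genes and the 3 of each other class with the highest mean CPM, and up to 4 called genes of a list. COL9A2, col14a1b, col28a2a, col19a1, col5a3a, col5a3b and col6a4b were named after their values were seen.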

Additional observations from a re-analysis of the deposited data

Results flagged for a closer look

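In groups of 4 or 6 fish, 15 values of named collagen genes or class means stood apart from the rest of their group, by a gap too large for the range of the others (Dixon's 95% limit, on log2 CPM). Chance flags about 1 in 20 groups where values are normally spread, and 140 groups of fish were looked at. Of the 15, 5 came from F2 females with few detected genes.

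In F2 treated-line female 24, COL4A1 was at 0, against 2.18 to 2.94 CPM in the other 3. In F2 treated-line female 6 the fibrillar mean was −0.49, against 0.06 to 0.16 in the others. In F2 control-line female 21 it was −0.29 (others −0.0004 to 0.05), col23a1b was at 0 (others 4.55 to 5.21 CPM), and COL1A1 was at 41.6 CPM (others 19.2 to 20.8 CPM). These 3 fish had 16060, 15730 and 16487 detected genes.

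In treated F0 males, col18a1a was 26.9 CPM in male 10 (others 32.3 to 35.5) and col16a1 10.2 CPM in male 38 (others 14.5 to 17.4). In control F0 males, col16a1 was 30.2 CPM in male 25 (others 11.5 to 15.3). Control male 3 had COL4A1 at 1.07 CPM (others 3.01 to 4.096) and COL12A1 (ENSDARG00000078322) at 4.05 CPM (others 20.9 to 47.1).

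The remaining flags were genes with reads in a lone fish of the group and 0 in the other 3. In such a group the gap is the whole range, so any read is flagged and the chance rate does not apply. In F2 treated-line females these were COL4A4 at 0.702 CPM and col23a1a at 0.141 CPM in female 10, and col7a1l (ENSDARG00000093135) at 0.358 CPM in female 28. In F2 control-line female 39 they were COL4A4 at 0.0750 CPM and col17a1b at 0.450 CPM.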

How the results depend on the processing

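In F0 males 1 collagen gene was called by the main test, against 5 with DESeq2, 2 with first runs only, 0 with the non-gene read share as a covariate and 0 without treated male 16 and control males 9 and 33. With each fish left out in turn the count was 1 to 4, 4 without treated male 2. Between F2 and F0 males 2 collagen genes were called, against 4 with DESeq2, 7 with the 16 males alone, 4 with control males only and 6 without the 4 F2 females with few genes, an alternative chosen after the data were seen. Leaving out each fish gave 0 to 3, and 0 without F2 treated-line male 30 or 38 or control-line male 25 or 27. The count of 0 in the other comparisons did not move under any alternative run. Fibrillar minus basement membrane ran from −0.60 to −0.14 between the lines of F2 females, the widest with members of at least 5 CPM, and turned to −0.02 in F0 males there. It moved to 0.29 (F2 females over males) with members of at least 5 CPM alone and to 0.42 (F2 over F0 males) with type IV alone as basement membrane. Of named genes' results with a fish left out, 245 kept direction and side of the threshold and 139 lost the threshold, and under the other settings 122 and 41. Over all genes in F0 males, leaving out a fish gave 440 (control male 33) to 3217 calls (treated male 2). MDK turned to −0.01 (−0.0139) with the covariate. The cause of these moves was not tested, and the covariate's values do not overlap between F0 arms. Without a filter, edgeR tested 25451 genes in F0 males. No paired analysis was possible because the fish compared share no numbers that tie them across arms or lines. F2 males rest on 2 fish a group, at 12.2 to 24.7 M gene reads.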
